A study of Mus musculus with 4 samples.

Results

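The C/EBP family (CCAAT/enhancer-binding proteins) was described in G1ER cells through 6 genes, Cebpa, Cebpb, Cebpd, Cebpe, Cebpg and Cebpz. They were picked by name from the 23936 gene rows of the deposited expression table, and all 6 had a row. G1ER is a mouse erythroblast line without GATA1 of its own, in which beta-estradiol activates a GATA1 protein fused to part of the estrogen receptor and starts red cell maturation. RNA came from wild-type cells and from a Chd7-/- knockout of the same line, each at 0 h and after 24 h of estradiol at 1e-07 M. All cells grew with erythropoietin at 2 U per mL and with medium conditioned for stem cell factor. The labels do not say how the knockout was made or whether it is a clone. Since every library carries estradiol as its treatment label, time was taken from the titles. With 1 library in each of the 4 groups there were no replicates, no test was possible, and every statement is about these libraries.

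C/EBPα, C/EBPβ, C/EBPδ, C/EBPε and C/EBPγ are basic leucine zipper (bZIP) factors that bind DNA as dimers and pair with each other and with relatives such as ATF4. In blood they are known as drivers of the granulocyte, monocyte and eosinophil lineages, and GATA1 with its cofactor FOG1 is known to oppose them in early red cell and megakaryocyte precursors. The product of Cebpz shares the family name because it binds CCAAT boxes, but it is a CBF/NOC1-type protein of the nucleolus whose yeast relative takes part in assembly of the large ribosomal subunit.

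The likeness and the limits of the family name are visible in the coding sequence. The stretches below, from GENCODE M21 transcripts on GRCm38, are shown because they are the 60 coding bases most alike across 4 of the bZIP genes, Cebpa, Cebpb, Cebpe and Cebpg, and thus a place where short reads of members could be confused. Capitals mark the 35 bases that are the same in all 4.
Cebpa: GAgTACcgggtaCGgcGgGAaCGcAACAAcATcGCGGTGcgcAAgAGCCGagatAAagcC
Cebpb: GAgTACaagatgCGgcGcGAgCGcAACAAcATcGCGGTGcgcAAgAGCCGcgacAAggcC
Cebpe: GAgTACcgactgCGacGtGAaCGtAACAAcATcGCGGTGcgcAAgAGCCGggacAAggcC
Cebpg: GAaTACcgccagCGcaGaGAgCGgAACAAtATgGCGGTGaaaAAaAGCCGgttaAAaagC

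In Cebpe the stretch runs from base 616 to base 675 of the coding sequence, counted from 1 at the start codon. Against Cebpe, 51 of the 60 bases were identical in Cebpa, 51 in Cebpb and 40 in Cebpg. The best match of the Cebpe stretch anywhere in the Cebpz coding sequence had 26 of 60. Over whole transcripts, the longest run of identical bases in any pair of these 4 genes and Cebpz was 29, between Cebpa and Cebpb. For Cebpe the longest was 26, shared with Cebpa and with Cebpb. Read length, and how reads with several matches were handled, is not given in the sources used here.

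Expression was deposited as FPKM (fragments per kilobase and per unit of mapped fragments), a level per length that can be compared between genes. A gene was called measured where its 4 values averaged 1 FPKM or more, a level that 8964 genes and 4 of the 6 members reached. The whole-number steps of low FPKM values gave approximate depths of 14740000 to 17680000 fragments per library. Intervals below are 95% Poisson intervals from these depths and the shortest annotated transcript of each gene, so they are approximate and cover counting error only. Ratios were taken on log2(FPKM + 1), where the change of a low gene comes out too small, and a gene was called higher or lower at 2-fold. For the erythroid label, all 11 erythroid markers in the table were above 0 in each library and summed at 899, 10563, 1350 and 18423 FPKM (wild type 0 h, wild type 24 h, knockout 0 h, knockout 24 h). The lowest value was 0.10 FPKM, for Slc4a1 in wild type at 0 h, and Hbb-b1 made up most of the 24 h sums. Gata1 is among the 11, and its reads may come from the GATA1 fusion, so it does not check the label. Chd7 was listed at 0 in all 4 libraries, so its row could not check the genotype labels.

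The library of the knockout at 0 h stood apart, because the small nucleolar RNA Snord49a held 33.9% of its summed FPKM and 0% of the sum in the other 3. Scaling to an equal sum per library (TPM) moved the median log2 ratio of all genes from -0.07 to -0.78 for knockout against wild type at 0 h, and from -0.12 to 0.83 for the knockout response. Of the knockout response, 98.7% of calls were higher with TPM scaling, so calls of lower genes in it are on the deposited scale. Without small RNA and predicted loci, the summed FPKM of the 4 libraries lay between 492611 and 546720. Each member is therefore also given relative to the median of all genes. A value relative to that median is nearly fixed under any scaling of whole libraries, so it shows where a member stands among genes and not whether its own level moved.

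Cebpb and Cebpz were the most abundant members. At 0 h in wild type the order was Cebpz (42.3 FPKM), Cebpb (28.7), Cebpg (20.6), Cebpe (2.93) and Cebpd (0.12), with Cebpa listed at 0, and none of the counting intervals of the first 5 overlapped. At 24 h the intervals of Cebpz and Cebpb overlapped in both genotypes, at 29.6 and 28.3 FPKM in wild-type cells against 24.1 and 23.4 in Chd7-/- cells. The order of the remaining members was the same in all 4 libraries. Among the 5 bZIP genes, Cebpb made up 48.5% to 58.0% of the summed FPKM, and the share of Cebpe went from 5.58% in wild type at 0 h to 19.5% in the knockout at 24 h.

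**Figure D1:**
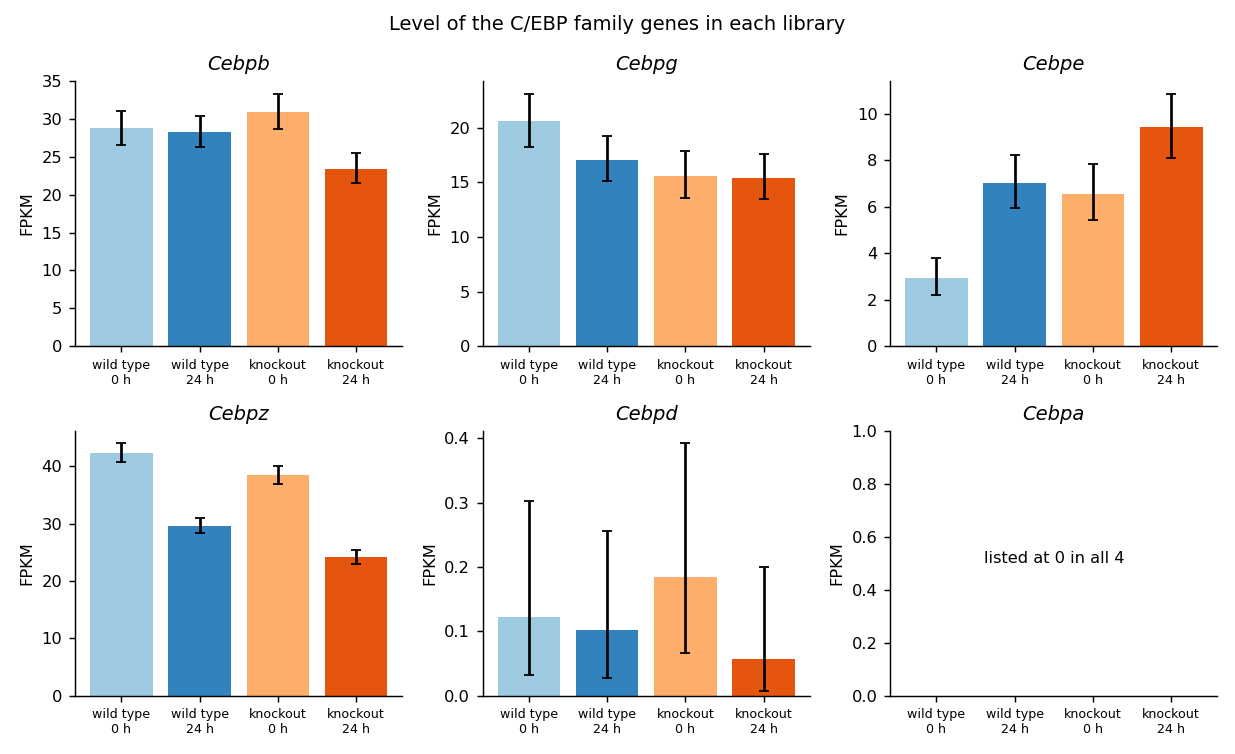
FPKM of each family gene (vertical axis, linear, a separate scale per gene) in the 4 libraries, 1 bar per library, with 95% Poisson counting intervals and no replicates. Cebpe was lowest in wild type at 0 h (2.93) and highest in the knockout at 24 h (9.42), Cebpz was lower in both 24 h libraries (29.6 and 24.1) than in both 0 h libraries (42.3 and 38.5) though not in the knockout with TPM scaling, and Cebpa was listed at 0.

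Cebpe encodes C/EBPε, known as the factor of late granulocyte maturation, of secondary granule genes and of eosinophils. Its gene lies on chromosome 14 (54710363 to 54712174, minus strand, GRCm38). It stood at 2.93 FPKM in wild type at 0 h (interval 2.18 to 3.79, about 54 fragments) and at 7.02 at 24 h (5.95 to 8.22, about 154). In the knockout it stood at 6.55 FPKM at 0 h (5.44 to 7.84, about 120 fragments) and at 9.42 at 24 h (8.10 to 10.9, about 186). On the deposited scale wild type at 0 h was thus the low library, and its interval met none of the other 3.

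In wild type Cebpe was the 1 measured member of 4 that was at least 2-fold higher at 24 h, where 1.86% of all genes were, while 0 of 4 were at least 2-fold lower (1.06% of genes). Its log2 ratio was 1.03, or 1.14 above the median of all genes, and 98.2% of genes had a lower ratio. This call was lost with a pseudocount of 5 FPKM (0.60) and with an equal sum of the genes other than small RNA and predicted loci (0.97). Taken as FPKM with nothing added, the fold was 2.40 (counting interval 1.76 to 3.27). In the knockout the 24 h level was 1.44-fold the 0 h level (1.14 to 1.81), a log2(FPKM + 1) ratio of 0.46 that reached 2-fold with TPM scaling (1.41). Of the 4 measured members 0 were at least 2-fold higher in the knockout (3.38% of genes) and 0 lower (3.64%).

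The knockout level of Cebpe was also above wild type at each time. At 0 h the FPKM ratio was 2.24 (1.62 to 3.08). On the log2(FPKM + 1) scale it was 0.94, just short of 2-fold, yet 99.5% of genes had a lower ratio. With a pseudocount of 0.1 FPKM (1.14) or an equal sum of the genes other than small RNA and predicted loci (1.02) it passed 2-fold, and with TPM scaling it was 0.29. At 24 h the FPKM ratio was 1.34 (1.08 to 1.66). On the deposited scale no measured member was called between genotypes (with TPM scaling Cebpg was, at 0 h), with 0 of 4 higher and 0 of 4 lower at 0 h (0.435% and 0.647% of genes) and 0 and 0 at 24 h (0.714% and 1.14%).

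The estradiol response of Cebpe was smaller in the knockout, by -0.57 on the log2(FPKM + 1) scale, a difference that turned to 0.15 with TPM scaling and was -0.54 relative to the median of all genes. As a ratio of FPKM folds it was 0.60 (0.41 to 0.88). By the 2-fold rule 0 of 4 members were higher and 0 lower in this difference, against 0.602% and 0.625% of genes. The 24 h levels, 7.02 and 9.42 FPKM, were nearer to each other than the 0 h levels, 2.93 and 6.55.

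**Figure D2:**
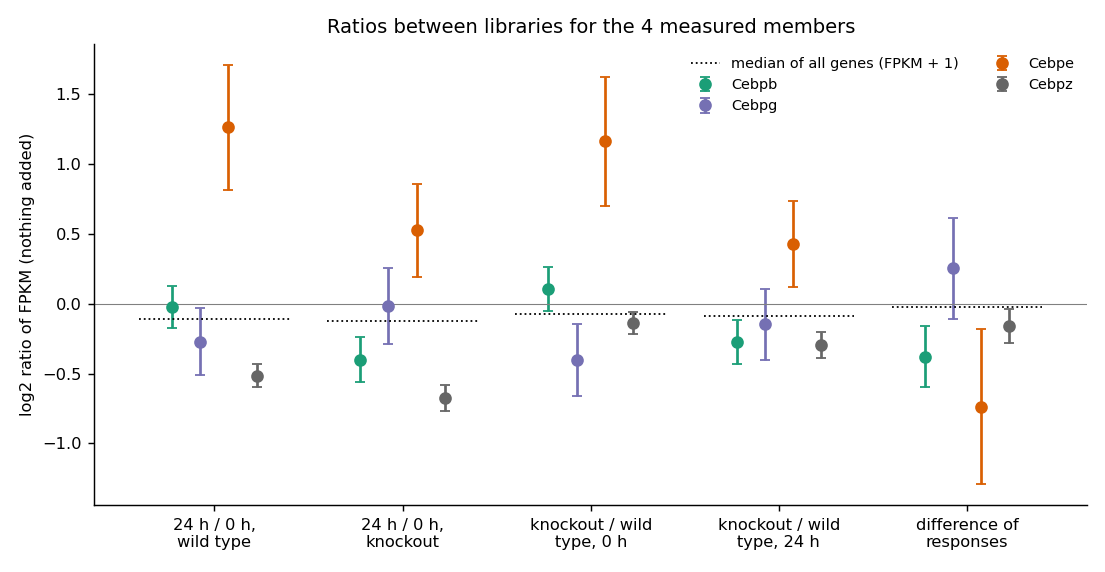
Log2 ratios of FPKM with nothing added (vertical axis) for the 4 measured members in 5 comparisons, with 95% counting intervals. Dotted lines give the median of all genes on the log2(FPKM + 1) scale. Cebpe lies above 0 in the first 4 comparisons and below 0 in the difference of responses, where TPM scaling turns its sign.

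Genes known to act downstream of or beside C/EBPε did not share one pattern. Of 25 neutrophil granule and oxidase genes, 13 were listed at 0 in all 4 libraries, among them Mpo, Elane, Camp, Lcn2 and Ngp, and 7 were measured. In wild type 1 of the 7 was at least 2-fold higher at 24 h, Ncf1, an oxidase subunit (0.35 to 2.57 FPKM), and 1 lower, Mmp8, a neutrophil collagenase (2.56 to 0.58). In the knockout 0 were higher and 2 lower, Mmp8 (5.04 to 0.26) and Lyz2, lysozyme (4.78 to 1.48). Over all genes 1.86% were higher and 1.06% lower in wild type, beside 3.38% and 3.64% in the knockout. Both Lyz2 in wild type (2.81 to 1.08 FPKM) and Ncf1 in the knockout (0.28 to 0.82) moved the same way without a call. Their log2(FPKM + 1) ratios were -0.87 and 0.51. The 7 genes had a median ratio of -0.21 for wild type and -0.04 for the knockout, beside -0.11 and -0.12 for all genes. Summed over the 10 neutrophil markers, the level was at most 0.157 FPKM in any library, and 8 of the 10 were listed at 0 in all 4.

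Of the 20 listed mast cell, basophil and eosinophil genes 7 were measured, and they went both ways. Both measured eosinophil granule genes were at least 2-fold higher at 24 h in each genotype (1.86% of all genes in wild type, 3.38% in the knockout). Prg2, the major basic protein, stood at 0.19 and 13.2 FPKM in wild-type cells against 0.38 and 49.7 in Chd7-/- cells at 0 and 24 h. Prg3, its relative, stood at 1.31 and 5.38 in wild-type cells against 2.88 and 10.4 in Chd7-/- cells. Like Cebpe, both Prg2 and Prg3 were lowest in wild type at 0 h and highest in the knockout at 24 h. This order was not particular to eosinophil genes, since Hdc and the erythroid genes Alas2, Slc4a1 and Hbb-b1 had it too. The mast cell genes Cpa3, Ms4a2 and Il1rl1 were at least 2-fold lower at 24 h in both genotypes, and Alox5, a leukotriene enzyme, in wild type (5.12 to 1.55 FPKM). Of all genes 1.06% were lower in wild type and 3.64% in the knockout. Cpa3, a mast cell protease, stood at 11.2 and 1.16 FPKM in wild-type cells against 24.6 and 0.56 in Chd7-/- cells. Hdc, the histamine-forming enzyme of mast cells and basophils, stood at 0.77 and 1.63 FPKM in wild-type cells against 1.961 and 2.56 in Chd7-/- cells. It was thus higher at 24 h, but not called, with log2(FPKM + 1) ratios of 0.57 in wild type and 0.26 in the knockout. Alox5 was the middle gene of the 7, so the list median was its own ratio, -1.27 in wild type and -0.12 for Chd7-/- cells, beside -0.11 and -0.12 for all genes. The 4 measured mast cell and basophil markers, Hdc included, had medians of -2.05 in wild type and -3.31 for Chd7-/- cells.

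The whole eosinophil marker list (8 of 9 genes in the table, 1 listed at 0 in all 4 libraries) summed to 1.67 and 19.2 FPKM in wild type at 0 and 24 h and to 3.53 and 60.5 in the knockout. Most of each sum came from Prg2 and Prg3, so it mainly repeats their levels. The highest value of any other gene on this list was 0.24, for Epx in Chd7-/- cells at 24 h. At these low values Epx and Il5ra stood higher at 24 h in both genotypes. Ear6 did so only in wild type (0 to 0.19 FPKM) and Ccr3 only in the knockout (0 to 0.02), while Ear1 and Ear2 did so in neither. Values this near 0 do not establish a direction. Mast cell and basophil markers, with Mcpt8 at 0 throughout, summed to 37.4 and 7.40 in wild-type cells against 65.7 and 5.31 in Chd7-/- cells. Markers of monocytes and macrophages summed to 2.67 to 8.002 FPKM over the 4 libraries, of megakaryocytes to 4.13 to 5.44, and of B and T cells to 0.0702 to 2.02. The part of other cell types in the Cebpe values was not tested. In bulk RNA, more cells that express a gene and more RNA per cell cannot be told apart.

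By a rule that searched 8730 genes, the patterns most like that of Cebpe over the 4 libraries were those of Bcl2l1, Gp9, 5031425E22Rik, 2310033P09Rik and Agfg2. Likeness was the Euclidean distance between log2(FPKM + 1) values after the mean of each gene was removed, and it ran from 0.25 for Bcl2l1 to 0.34 for Agfg2. Bcl2l1, which encodes the survival factor BCL-XL, stood at 1.73 and 4.14 FPKM in wild-type cells against 3.22 and 6.13 in Chd7-/- cells at 0 and 24 h. Gp9, a platelet glycoprotein, stood at 1.00 and 2.48 in wild-type cells against 2.00 and 4.01 in Chd7-/- cells. All 5 genes, like Cebpe, were lowest in wild type at 0 h and highest in the knockout at 24 h, and with 4 libraries this order alone can be met by many genes.

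**Figure D3:**
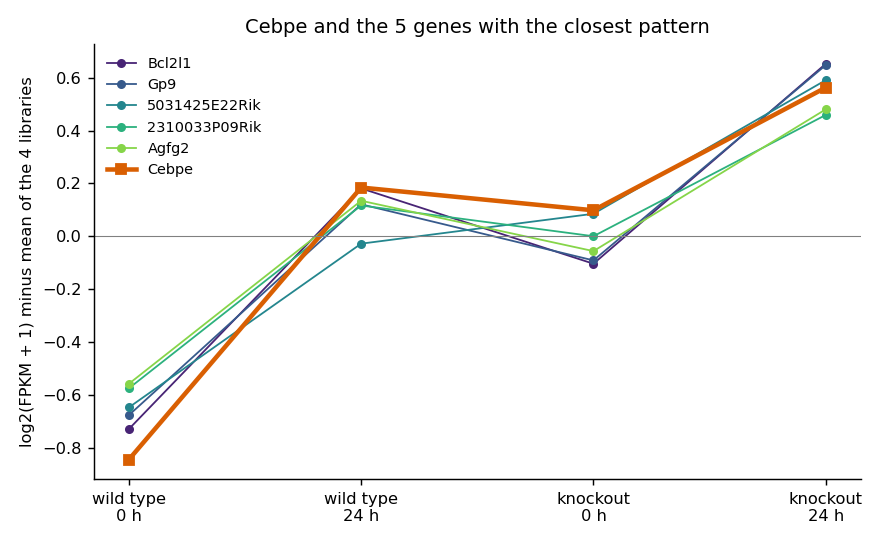
Log2(FPKM + 1) minus the mean of the 4 libraries (vertical axis) for Cebpe (thick line, squares) and the 5 genes nearest to it by Euclidean distance (thin lines, circles), by library. Each line starts at its lowest value in wild type at 0 h and ends at its highest in the knockout at 24 h.

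The gene next to Cebpe did not follow it. Slc7a8, an amino acid transporter gene that lies 10040 bases from Cebpe, beyond its start, on chromosome 14, stood at 22.1 and 10.1 FPKM in wild-type cells against 20.5 and 14.2 in Chd7-/- cells at 0 and 24 h. Its log2 ratio at 24 h was -1.07 in wild type, where Cebpe had 1.03, and -0.50 in the knockout.

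Cebpb encodes C/EBPβ, known for emergency granulocyte production and inflammatory genes, and was the most abundant bZIP member in each library. It stood at 28.7 and 28.3 FPKM in wild-type cells against 30.9 and 23.4 in Chd7-/- cells at 0 and 24 h, from about 562 to 753 fragments. On the deposited scale the low library was the knockout at 24 h, whose interval (21.5 to 25.5) lay below the other 3. The wild-type 24 h level was 0.99-fold the 0 h level (counting interval 0.89 to 1.09). In the knockout it was 0.76-fold (0.68 to 0.85), a log2(FPKM + 1) ratio of -0.39, or -0.26 relative to all genes, which TPM scaling turned to 0.66. Knockout over wild type was 1.08 at 0 h (0.97 to 1.20), where TPM scaling turned the log2 ratio from 0.10 to -0.66, and 0.83 at 24 h (0.74 to 0.92).

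Cebpg encodes C/EBPγ, a short bZIP protein without an activation domain of its own that dimerizes with other members and with ATF4. Its levels were 20.6 and 17.1 FPKM in wild-type cells against 15.6 and 15.4 in Chd7-/- cells at 0 and 24 h. As deposited, the high library was wild type at 0 h, whose interval (18.3 to 23.1) lay above that of both knockout libraries and overlapped that of wild type at 24 h (15.1 to 19.2). Knockout over wild type at 0 h was 0.76 (counting interval 0.63 to 0.91), a log2(FPKM + 1) ratio of -0.38, or -0.31 relative to all genes, and 6.49% of genes had a lower ratio. TPM scaling moved this ratio to -1.12, past 2-fold. At 24 h it was 0.90 (0.76 to 1.08). The knockout response was flat, at 0.99-fold (0.82 to 1.19), although TPM scaling gave a log2 ratio of 1.00.

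Partners and targets of C/EBPγ were mostly within 2-fold. Atf4, its dimer partner in the amino acid response, stood at 151 and 111 FPKM in wild-type cells against 136 and 85.2 in Chd7-/- cells. Ddit3, which encodes CHOP, a C/EBP relative that blocks other members, stood at 33.6 and 37.5 in wild-type cells against 29.0 and 43.8 in Chd7-/- cells. Of 27 amino acid and redox genes linked to ATF4 and C/EBPγ, 23 were measured. In wild type 0 were at least 2-fold higher or lower at 24 h, where 1.86% of all genes were higher and 1.06% lower. In the knockout 0 were higher (3.38% of all genes) and 3 lower (3.64%). The 3 were Slc7a11 (4.75 to 1.46 FPKM), Psph (80.9 to 36.2) and Gpt2 (15.8 to 7.15). The list median stood at -0.20 for wild type and -0.29 for Chd7-/- cells, beside -0.11 and -0.12 for all genes.

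Cebpa and Cebpg lie on chromosome 7, 62726 bases apart, with Cebpg at 35046422 to 35056566 (minus strand) and Cebpa at 35119293 to 35121928 (plus strand). The gene Gm45095 (35055483 to 35057645, plus strand) overlaps the start of Cebpg on the opposite strand and is the nearest one before Cebpa. No row of the deposited table was found for Gm45095. Cebpa encodes C/EBPα, known as the factor that commits progenitors to granulocytes and restrains their division. It was listed at 0 FPKM in all 4 libraries, as were 43.5% of the rows of the table. A listed 0 need not be an absence, since Hmgcs1, Insig1, Phgdh, Ube2d1 and Zfp131, genes of most cells chosen after their values were seen, were also at 0 throughout. On the far side of Cebpa, the transporter gene Slc7a10 was listed at 0 in all 4 libraries, while Pepd, a peptidase gene 1713 bases from the end of Cebpg, stood between 12.5 and 14.3 FPKM.

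The 250 bases before the start of Cebpa, Cebpb and Cebpg (RefSeq, GRCm38.p6, 3 of 6 members matched) are shown because they set a gene listed at 0 beside the most abundant bZIP members, and each holds a different motif. Capitals mark the matches to 3 promoter motifs searched on both strands, which were TATAAA (the TATA box), the CCAAT box, and TGACG (the core of a cyclic AMP response element). Each line is written 5′ to 3′ on the strand of its gene.
Cebpa: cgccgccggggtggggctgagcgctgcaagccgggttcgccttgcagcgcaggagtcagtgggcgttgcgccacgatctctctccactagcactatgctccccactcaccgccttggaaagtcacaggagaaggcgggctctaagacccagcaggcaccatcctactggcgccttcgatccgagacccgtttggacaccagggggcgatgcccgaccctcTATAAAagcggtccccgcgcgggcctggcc
Cebpb: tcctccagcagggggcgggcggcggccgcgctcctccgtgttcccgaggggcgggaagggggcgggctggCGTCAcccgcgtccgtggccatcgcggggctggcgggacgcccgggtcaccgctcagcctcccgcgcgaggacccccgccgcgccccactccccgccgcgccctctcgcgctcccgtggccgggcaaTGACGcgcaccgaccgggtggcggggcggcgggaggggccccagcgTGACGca
Cebpg: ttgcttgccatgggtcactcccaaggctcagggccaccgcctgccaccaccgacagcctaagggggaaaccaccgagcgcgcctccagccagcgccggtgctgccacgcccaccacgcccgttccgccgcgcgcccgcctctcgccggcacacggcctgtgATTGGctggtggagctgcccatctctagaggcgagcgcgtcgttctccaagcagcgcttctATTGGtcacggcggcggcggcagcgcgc

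These windows are chr7:35119043-35119292 for Cebpa, chr2:167688665-167688914 for Cebpb and chr7:35056567-35056816 for Cebpg. Cebpa held TATAAA starting 30 bases before the gene, a motif found in 12.4% of 32851 promoter windows of this length. Cebpb held 3 TGACG, starting 180, 53 and 7 bases before the gene, where 17.8% of windows had at least 1. Cebpg held 2 CCAAT, both on the opposite strand and starting 89 and 28 bases before the gene, a motif in 33.8% of windows. The GATA factor motif GATAA, found in 22.6% of windows, was in none of the 3 on either strand. The same held for the C/EBP-type motif TTGCNNAA, found in 9.56% of windows. The G and C content was 66.4% for Cebpa, 81.6% for Cebpb and 70.8% for Cebpg, against a median of 52.4%.

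Cebpd encodes C/EBPδ, an acute phase and growth arrest factor, and was at the edge of detection. It stood at 0.12 and 0.10 FPKM in wild-type cells against 0.18 and 0.06 in Chd7-/- cells at 0 and 24 h, which is about 4, 4, 6 and 2 fragments. All 4 intervals overlapped, and no difference was detectable at this depth. Spidr, which overlaps the end of Cebpd on the opposite strand (chromosome 16), stood between 16.9 and 20.7 FPKM. Among 18 acute phase and inflammatory genes linked to C/EBPβ and C/EBPδ, 10 were listed at 0 in all 4 libraries and 2 were measured, Il1b and Il4ra. The median ratios at 24 h over these 2 genes were 0.79 in wild type and 0.73 in the knockout. Il1b, an inflammatory cytokine, was at least 2-fold higher at 24 h in both genotypes, at 0.94 and 4.37 FPKM in wild-type cells against 0.94 and 7.25 in Chd7-/- cells.

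Cebpz (chromosome 17, 78919003 to 78937070, minus strand) was lower after estradiol in both genotypes, though TPM scaling turned the knockout ratio to 0.40. It stood at 42.3 FPKM in wild type at 0 h (interval 40.7 to 44.0) and 29.6 at 24 h (28.4 to 30.9), and at 38.5 (36.9 to 40.1) and 24.1 (22.9 to 25.3) in the knockout. Both 24 h libraries were below both 0 h libraries, with no overlap of the counting intervals between times. The 24 h level was 0.70-fold the 0 h level in wild type (0.66 to 0.74) and 0.63-fold in the knockout (0.59 to 0.67). Relative to all genes the log2(FPKM + 1) ratios were -0.39 and -0.53, and with TPM scaling these relative values were -0.37 and -0.43. Knockout over wild type was 0.91 at 0 h (0.86 to 0.96) and 0.81 at 24 h (0.76 to 0.87).

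Ribosome assembly genes as a list were lower at 24 h in wild type, and in the knockout on the deposited scale but not with TPM scaling. Of 31 listed genes 28 were in the table and measured. In wild type 27 of the 28 had a 24 h ratio below 0 (64% of all genes), and 23 of 28 with TPM scaling (36.1% of all genes). In the knockout 27 of 28 did so as deposited (62.5% of all genes) and 3 of 28 with TPM scaling, which left 4.77% of all genes below 0. Rrp1 was the exception in both genotypes as deposited. At least 2-fold lower were 1 of 28 in wild type, Rrp1b (17.5 to 8.04 FPKM), where 1.06% of all genes were, and 4 of 28 in the knockout, which added Heatr1, Polr1b and Wdr12, where 3.64% were. The median of the list was -0.43 in wild-type and -0.72 in Chd7-/- cells, beside -0.11 and -0.12 for all genes and -0.50 and -0.65 for Cebpz itself. Noc3l, a partner of the NOC family to which CEBPZ belongs, stood at 16.9 and 10.2 FPKM in wild-type cells against 13.3 and 7.41 in Chd7-/- cells. Noc4l, another NOC protein, stood at 43.5 and 35.7 in wild-type cells against 56.3 and 38.9 in Chd7-/- cells. The difference of responses was below 0 for 28 of 28 genes as deposited (53.7% of all genes). With TPM scaling it was below 0 for 0 of 28, where only 1.93% of all genes were below 0. The deposited median of this difference was -0.24 beside -0.15 for Cebpz and -0.02 for all genes. With TPM scaling the median relative to all genes was -0.30, -0.49 and -0.14 for the wild-type response, the knockout response and their difference.

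**Figure D4:**
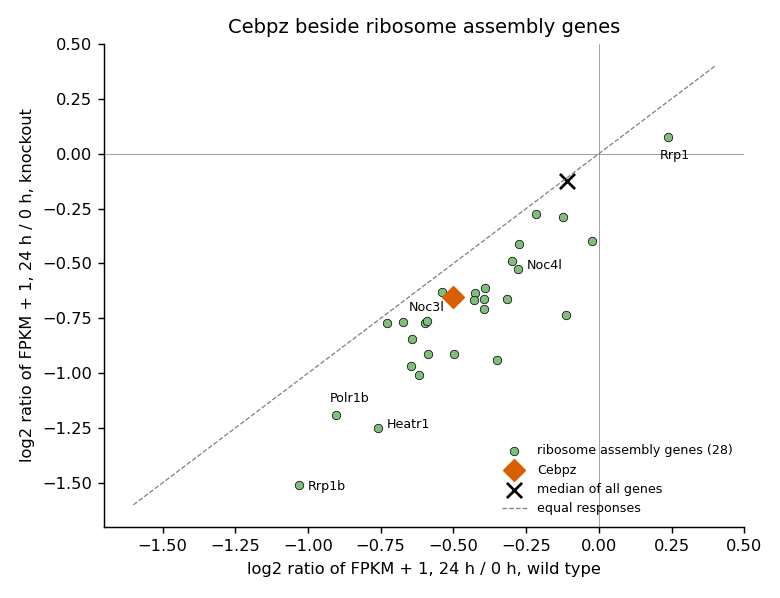
Log2 ratio of FPKM + 1 at 24 h over 0 h in wild type (horizontal axis) and in the knockout (vertical axis) for Cebpz (diamond), the 28 measured ribosome assembly genes (circles) and the median of all genes (cross), as deposited and before TPM scaling, which raises all knockout ratios. Cebpz (-0.50, -0.65) sits among the circles, 27 of which lie below 0 on both axes.

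Beside Cebpb, Tmem189 stood between 4.14 and 7.03 FPKM and Ptpn1 between 6.30 and 6.87, and beside Cebpd, Mzt2 stood between 18.2 and 23.5. The genes that flank Cebpz are close to it. Ndufaf7, which encodes a complex I assembly factor, starts 35 bases beyond the start of Cebpz on the opposite strand. It stood at 12.2 and 9.29 FPKM in wild-type cells against 11.3 and 7.43 in Chd7-/- cells, log2 ratios of -0.36 and -0.55 at 24 h. Cebpzos overlaps the other end of Cebpz on the opposite strand and stood at 5.64 and 6.09 FPKM in wild-type cells against 5.71 and 4.37 in Chd7-/- cells. Whether the authors counted reads by strand is not given in the sources used here, so reads in these overlaps cannot be assigned. The same holds for Cebpd with Spidr and for Cebpg with Gm45095.

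Regulators known to work with or against C/EBP factors were mixed. Of 27 listed cofactors, 17 were measured, and in wild type 1 was at least 2-fold higher at 24 h, Jun, a bZIP partner (0.15 to 3.29 FPKM), and 1 lower, Gata2, an early progenitor factor (21.9 to 5.53). In the knockout 2 were higher, Jun (0.38 to 3.58) and Zfpm1, the FOG1 gene (39.9 to 101), and 2 lower, Gata2 (23.0 to 2.40) and Myb (87.6 to 35.3). Calls were also more frequent over all genes in the knockout, at 3.38% higher and 3.64% lower, beside 1.86% and 1.06% in wild type. Spi1, which encodes the myeloid factor PU.1, stayed within 2-fold, at 12.9 and 25.02 FPKM in wild-type cells against 12.5 and 23.9 in Chd7-/- cells. Of the Trib pseudokinase genes, Trib3 stood at 46.0 and 40.8 FPKM in wild-type cells against 39.8 and 28.4 in Chd7-/- cells. Trib1 was at most 0.08 FPKM in any library, and Trib2 was listed at 0. The list median was 0.02 in each genotype, beside -0.11 and -0.12 for all genes.

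Among cytokine receptors known as C/EBP targets in myeloid cells, 4 of 12 were measured. At 24 h 2 of the 4 were at least 2-fold higher in both genotypes (1.86% of all genes in wild type, 3.38% in the knockout). These were Csf2rb, the beta chain shared by the receptors for interleukin 3, interleukin 5 and GM-CSF, and Csf2rb2, the mouse beta chain for interleukin 3. Both were also past 2-fold between genotypes at 24 h, with the knockout above wild type, as were 0.714% of all genes. At 24 h wild type had 38.2 FPKM of Csf2rb where the knockout had 138, and of Csf2rb2 they had 6.04 and 38.7. Cxcr2, a neutrophil chemokine receptor, stood at 2.52 and 1.76 FPKM in wild-type cells against 2.62 and 1.81 in Chd7-/- cells, and Il6ra and Cd14 were listed at 0 in all 4 libraries. Il3ra, the other measured receptor, stood at 4.69 and 6.13 FPKM in wild-type cells against 3.41 and 3.82 in Chd7-/- cells. Its level was thus lower in the knockout at each time. The median ratio of the 4 receptors at 24 h was 1.32 in wild type, and the knockout had 2.30. Of 12 fat cell targets of C/EBPα, 4 were measured and 6 listed at 0 throughout, with Pparg and Adipoq among the latter. Scd1, a fatty acid desaturase, was the 1 of these past 2-fold, in the knockout (46.3 to 17.3 FPKM), where 3.64% of all genes were lower. The list medians were -0.52 in wild type and -0.63 in the knockout.

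Cell cycle genes through which C/EBPα is known to arrest division were mostly within 2-fold, with 15 of 16 measured. In wild type 0 were past 2-fold, and Cdkn1b, the p27 inhibitor, stood at 12.5 and 23.2 FPKM. In the knockout Cdkn1b (9.78 to 27.1) and Ccnd3, cyclin D3 (48.7 to 143), were at least 2-fold higher and Myc (17.8 to 8.40) at least 2-fold lower. The knockout response had 3.38% of all genes higher and 3.64% lower, beside 1.86% and 1.06% in wild type. Medians of this list were -0.13 for wild type and -0.05 for Chd7-/- cells. Of 19 monocyte and macrophage genes 2 were measured, Cd68 and Lyz2, and 9 were listed at 0 throughout, with medians over the 2 of -0.26 in wild type and -0.95 in the knockout.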

How the data were processed

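Total RNA went through removal of ribosomal RNA and then into ScriptSeq v2 libraries, per the labels' protocols. The authors deposited FPKM, with a value for every gene symbol in each library. GRCm38, Cufflinks 2.2.1, TopHat2 2.0.11, cutadapt and FastQC are listed in the submitters' processing notes. How libraries were scaled to each other, which annotation was used and whether strand was used is not given in the sources used here. A repeated header line (1) was left out of the table. Columns were mapped by the names in the descriptions.

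The members and the 10 gene lists were chosen with earlier results of these data known. The 5 comparisons were wild type and knockout at 24 h against 0 h, knockout against wild type at 0 h and at 24 h, and the difference of responses. Each was a log2 ratio of FPKM + 1, called at 2-fold among the 8964 genes that averaged 1 FPKM or more. Depth was sought as the fragment step of values of genes with a single GENCODE transcript of at least 3 kb. Between 57.1% and 67.2% of the low values were within 0.1 of a whole fragment, where evenly spread values would give 20%, so the depths of 14980000, 17680000, 14740000 and 15940000 fragments (wild type 0 and 24 h, knockout 0 and 24 h) are rough, and counts were not tested. Named were all members, up to 3 genes highest and 3 lowest per list, the 5 genes most like a member whose log2 range reached 1 (Cebpe), and the nearest protein-coding neighbours found in the table. Gm45095, a neighbour without a row in it, is named for its overlap with Cebpg. Further list genes that are named were chosen after their values were seen. A sequence comparison of 1 further member is not reported here. Calculations used scipy 1.17.1, pandas 2.3.3 and numpy 2.4.6 in Python 3.11.15, with matplotlib 3.10.9 for figures.

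Of the 8964 genes 63.7% of calls were higher in the wild-type response (84.6% with TPM scaling, 75.6% median-centred) and 48.2% in the knockout response (98.7% with TPM, 62.0% median-centred, 60.1% with upper-quartile scaling). For knockout against wild type 40.2% were higher at 0 h (2.46% with TPM) and 38.6% at 24 h (48.8% with upper-quartile scaling, 53.3% with an equal sum of the genes other than small RNA and predicted loci). In the difference of responses 49.1% were higher (98.2% with TPM). Alternatives were pseudocounts of 0.1 and 5 FPKM, these scalings, no filter, a filter at an average of 5 FPKM and small RNA and predicted loci left out.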

Additional observations from a re-analysis of the deposited data

Results flagged for a closer look

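The knockout-to-wild-type ratio of Cebpb was on opposite sides of 0 at the 2 times, with a log2(FPKM + 1) ratio of 0.10 at 0 h and -0.26 at 24 h. The change between times was -0.36. It was not tested, since there was 1 library per group, and TPM scaling gave -0.66 at 0 h and -0.22 at 24 h.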

How the results depend on the processing

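No paired analysis was possible because each group had 1 library and the labels carry no replicate numbers. Of 20 member ratios per setting, 8 took the opposite sign with TPM scaling, 2 with median-centring, 2 with upper-quartile scaling and 0 with either pseudocount or with the added scaling. The absolute ratios moved by more than the counting interval in 19 of the 120 cases, mainly with TPM scaling. The TPM values were 0.21, 0.66, -0.66 and 0.45 for Cebpb (wild-type response, knockout response, knockout over wild type at 0 h, difference of responses). For the last 3 of these comparisons they were 1.41, 0.29 and 0.15 for Cebpe and 1.00, -1.12 and 1.03 for Cebpg. For Cebpz they were -0.27, 0.40, -0.91 and 0.67 in the order of Cebpb. Median-centring gave -0.41 and -0.54 for the Cebpz responses and upper-quartile scaling -0.54 in the knockout. An equal sum of the genes other than small RNA and predicted loci, added after the data were seen, gave -0.048 and -0.17 for Cebpz in knockout over wild type at 0 and 24 h. The cause was not tested.

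Counts of genes past 2-fold were 262 in the wild-type response, 629 in the knockout response, 97 and 166 between genotypes at 0 and 24 h, and 110 in the difference of responses. A pseudocount of 0.1 FPKM gave 394 (wild-type response), 173 and 317 (genotypes at 0 and 24 h) and 224 (difference). A pseudocount of 5 FPKM gave 127, 303, 48, 65 and 52 in the same order. TPM scaling gave 3082 in the knockout response, 1139 between genotypes at 0 h and 1352 in the difference. A mean of at least 5 FPKM gave 63 and 106 between genotypes, and leaving out small RNA and predicted loci gave 63 at 0 h and 72 in the difference. The list medians relative to all genes were also recomputed under these settings after the data were seen, and 5 of them, all of monocyte genes with 2 measured members, moved by more than the spread of the list. Depth limits Cebpd to a few fragments, and FPKM rows at 0 cannot be read as absence.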
